A study of Homo sapiens with 6 samples.

Results

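Voltage-gated calcium channel subunits were followed in A549 cells, an established human lung carcinoma line of epithelial origin, grown with or without amorphous calcium carbonate (ACC), a calcium salt whose particles lack crystal order. The genes described are CACNA1D, CACNA1G, CACNA1H, CACNG4, CACNB1, CACNB3, CACNB4 and CACNA2D1, which are 8 of the 24846 genes in the table. They were chosen by name, with the measured difference between ACC and control cells already known, so those differences are given as a description and carry no p-value.

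ACC cells were wild-type A549 grown for 8 passages in calcium-depleted DMEM/F12 medium to which 2 mM elemental calcium was added as ACC. Control cells were the same wild-type line grown for 8 passages in complete DMEM/F12 medium, and serum was present in both. Each group had 3 libraries of RNA sequencing. The source and the amount of calcium both differed between the groups. ACC also brought carbonate, and the paper's ACC suspensions held sodium tripolyphosphate as a stabilizer. The paper further reports that ACC raised the pH of acidified medium. The parts of calcium source, calcium amount, carbonate, stabilizer and pH in any difference cannot be told apart, and 1 cell line stands behind every value.

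Voltage-gated calcium channels open when the membrane depolarizes and let calcium into the cell. The α1 subunit forms the pore and sets the channel type. CACNA1D encodes an L-type pore, of a class that as a rule needs stronger depolarization to open than T-type pores do. CACNA1G, CACNA1H and CACNA1I encode T-type pores, which open near the resting potential. The β subunits bind high-voltage-activated α1 subunits from the cytosol and aid their trafficking, and the α2δ subunits sit on the outer face and raise the channel number at the surface. Some γ subunits, CACNG4, CACNG7 and CACNG8 among them, are better known as transmembrane regulators of AMPA-type glutamate receptors. These channels are studied mainly in neurons, muscle and endocrine cells.

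The libraries held 21771645 to 24805486 reads in genes, and replicates differed by more than sampling noise. Values are normalized read counts, that is, counts per gene divided by a size factor for each library. All 6 epithelial markers examined had at least 30 reads in a library, with KRT8, KRT18 and KRT7 the highest of them. Of the 6 alveolar type II markers in the table, ABCA3 had at least 30 reads in a library and NKX2-1 had none. No leukocyte or endothelial marker reached 30 reads. Mitochondrial genes took 4.39 to 5.70% of reads in ACC libraries and 4.04 to 4.29% in control libraries. In bulk RNA, fewer cells that express a gene and less RNA per cell cannot be told apart.

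All 8 genes passed the filter on low values, which kept 19318 genes whose normalized counts summed to at least 10, and 7 of the 8 had at least 30 reads in a library. In limma at a Benjamini-Hochberg adjusted p of 0.05 or less, 3 of the 8 passed as higher with ACC, where 21.3% of all tested genes did, and 3 passed as lower, where 21.9% did. A gene was called when it also changed at least 2-fold and had at least 30 reads in a library. By this rule 1 of the 8, CACNA1D, was called higher, against 2.77% of all tested genes, and 2, CACNA1G and CACNG4, were called lower, against 2.24%. Since the genes were chosen with this contrast known, nothing is read from these counts.

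The 3 α1 genes differed in both directions. CACNA1D, the L-type pore gene at chr3:53328963-53813733 on the plus strand (GRCh38, GENCODE), had 519.87, 566.33 and 550.35 normalized counts in the ACC libraries, against 152.27, 157.36 and 117.76 in the control libraries. Every ACC library was more than 3 times as high as any control library, and control replicate 3 was the lowest of all. The mean was 545.5 ± 23.6 normalized counts with ACC and 142.5 ± 21.5 in control cells (SD, n = 3 each), a ratio of 3.83 and a difference of 1.94 on the log2(normalized count + 1) scale. Behind these values stood 124 to 588 reads per library.

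The 3′ end of CACNA1D overlaps that of CHDH, which encodes choline dehydrogenase, on the opposite strand by 1399 bases of exon. Whether strand was used in counting reads is not stated in the study's methods, so reads from the shared bases cannot be told apart. CHDH had 343.79, 324.58 and 346.78 normalized counts in ACC cells and 314.18, 279.16 and 333.32 in control cells, with overlapping groups (log2 difference 0.13, limma adjusted p = 0.179). DCP1A, a decapping enzyme gene that overlaps the span of CACNA1D but none of its exons, did not pass either (log2 difference 0.13, limma adjusted p = 0.121).

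The sequence before the RefSeq start of CACNA1D is shown because this gene had the largest ratio of ACC to control among the 8, and that of CACNA2D1 because it supplied nearly all α2δ RNA. Each is the 250 bases upstream of the start in RefSeq, GRCh38.p14, written 5′ to 3′ along the strand of the gene, with every match to the GC box (GGGCGG, either strand) in capitals. The CACNA1D window is chr3:53494361-53494610 on the plus strand, and the CACNA2D1 window is chr7:82443957-82444206 on the minus strand. Neither window holds an annotated exon, and the CACNA1D window lies within the gene's GENCODE span.
CACNA1D: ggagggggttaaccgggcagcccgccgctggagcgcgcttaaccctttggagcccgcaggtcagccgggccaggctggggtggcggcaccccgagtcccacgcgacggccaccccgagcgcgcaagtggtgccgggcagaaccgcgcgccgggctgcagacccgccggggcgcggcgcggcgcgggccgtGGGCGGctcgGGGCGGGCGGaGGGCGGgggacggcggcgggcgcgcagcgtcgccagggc
CACNA2D1: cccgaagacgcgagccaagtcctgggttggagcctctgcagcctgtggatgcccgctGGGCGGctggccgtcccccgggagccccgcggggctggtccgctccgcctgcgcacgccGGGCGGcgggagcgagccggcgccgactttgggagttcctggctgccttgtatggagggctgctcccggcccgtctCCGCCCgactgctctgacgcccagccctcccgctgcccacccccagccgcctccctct
The CACNA1D window held 4 GC box matches, of which a pair overlap, and the CACNA2D1 window held 3. A GC box match was present in 42.6% of the 35116 RefSeq windows of this length. Neither window matched the CRE (TGACGTCA, in 1.65% of windows), the AP-1 site (TGANTCA, in 6.57%), the E-box searched (CACCTG, in 17.5%) or the TATA box (TATAAA, in 10.7%), each sought on both strands. G and C made up 81.6% of the CACNA1D window, which is percentile 98.0 of all windows, and 75.6% of the CACNA2D1 window, where the median of all windows was 58.0%. RefSeq entries were matched for 5 of the 8 genes (CACNA1D, CACNB1, CACNB3, CACNB4 and CACNA2D1), and a match to a motif is a description of letters only.

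CACNA1G, a T-type pore gene at chr17:50560715-50627474 on the plus strand, had 281.36, 294.72 and 256.76 normalized counts in ACC libraries, against 1057.22, 1063.32 and 1193.7 in control libraries. All 3 ACC libraries lay far below all 3 control libraries, and control replicate 3, lowest for CACNA1D, was here the highest. The mean was 277.6 ± 19.3 normalized counts with ACC and 1105 ± 77.1 in control cells (SD, n = 3 each), so ACC cells had 25.1% of the control level (log2 difference -1.99).

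CACNA1H, the other T-type pore gene among the 8, lies at chr16:1153106-1221771 on the plus strand. Its normalized counts were 2599.36, 2721.85 and 2691.39 with ACC and 2146.25, 2226.21 and 1829.96 in control cells. The ACC libraries were all higher than the control libraries and closer to each other than the control libraries were. The ratio of means was 1.29 and the log2 difference 0.37, or 0.29 without control replicate 3. Both annotated genes that share exon bases with CACNA1H and are in the table were near 0: TPSG1, which overlaps it by 121 bases, had 3.07 to 7.6 normalized counts per library.

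**Figure D1:**
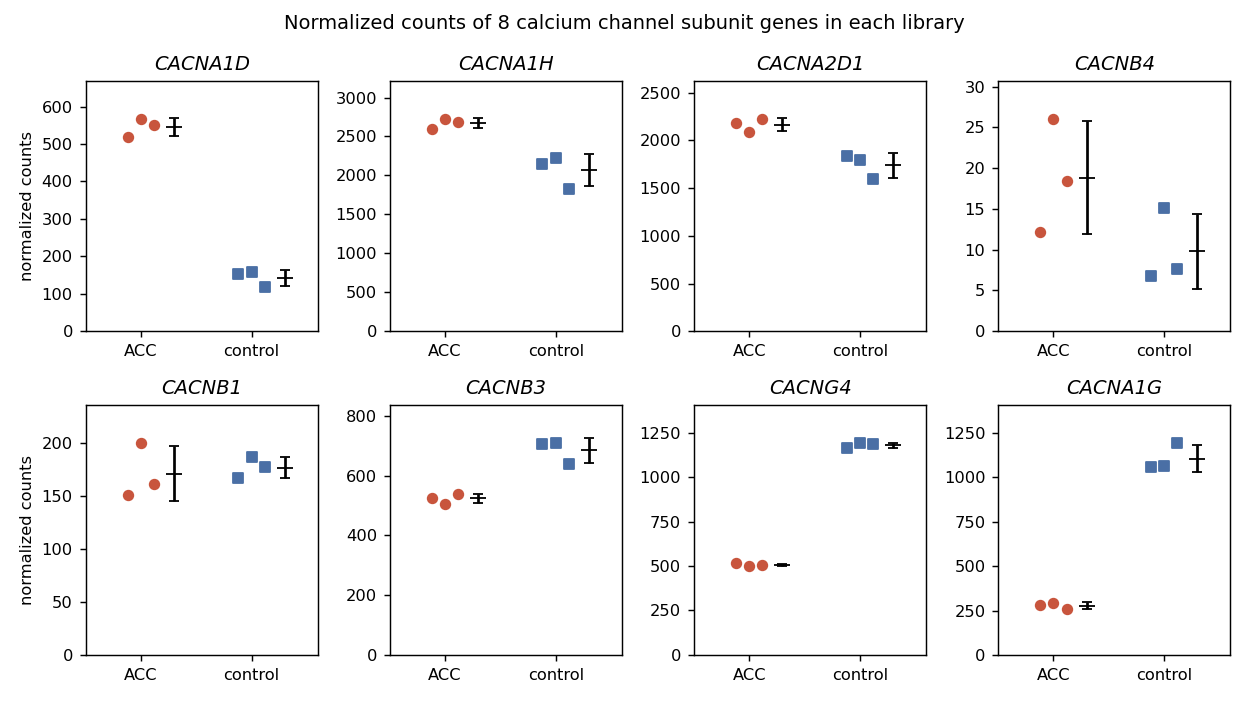
Normalized read counts of the 8 subunit genes in each library, 1 panel per gene with its own linear axis from 0, ACC libraries to the left of control libraries, with black bars for the mean ± SD. CACNA1D is higher in all 3 ACC libraries, CACNA1G and CACNG4 are lower in all 3, and the groups overlap for CACNB1 and CACNB4.

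Set per kilobase of the canonical transcript, CACNA1H was the most abundant α1 gene in both groups, with 325.0 normalized counts per kb in ACC cells and 251.5 in control cells. CACNA1D had 58.2 per kb with ACC and 15.2 in control cells, and CACNA1G had 32.3 with ACC and 128.4 in control cells. Thus CACNA1D stood above CACNA1G in ACC cells and below it in control cells. The per-kb ratio of CACNA1D to CACNA1G within a library was 1.70, 1.76 and 1.97 with ACC, against 0.132, 0.136 and 0.0906 in control cells. Dividing by the length of all exons together left the order in control cells but brought both genes close together in ACC cells, where CACNA1D made up 7.7% of the α1 total and CACNA1G 7.48%.

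Summed over the 10 α1 genes in the table, the per-kb level was 419.5 ± 11.1 with ACC and 400.2 ± 19.1 in control cells (SD, n = 3 each), a gap of about the size of the control SD. CACNA1H made up 77.5 ± 0.423% of that sum in ACC cells and 62.7 ± 3.48% in control cells. CACNA1D made up 13.9 ± 0.239% with ACC and 3.79 ± 0.407% in control cells. CACNA1G made up 7.69 ± 0.519% with ACC and 32.2 ± 3.83% in control cells. The α1 sum was therefore near the same level in both groups while its make-up differed, with less of it from CACNA1G in ACC cells and more from CACNA1H and CACNA1D. CACNA1I, the remaining T-type gene and not among the 8, had 12.11, 15.41 and 18.41 normalized counts in ACC cells and 34.69, 33.78 and 28.49 in control cells, without overlap. The L-type genes CACNA1S and CACNA1C had at most 2 reads in a library, and CACNA1F had none.

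**Figure D2:**
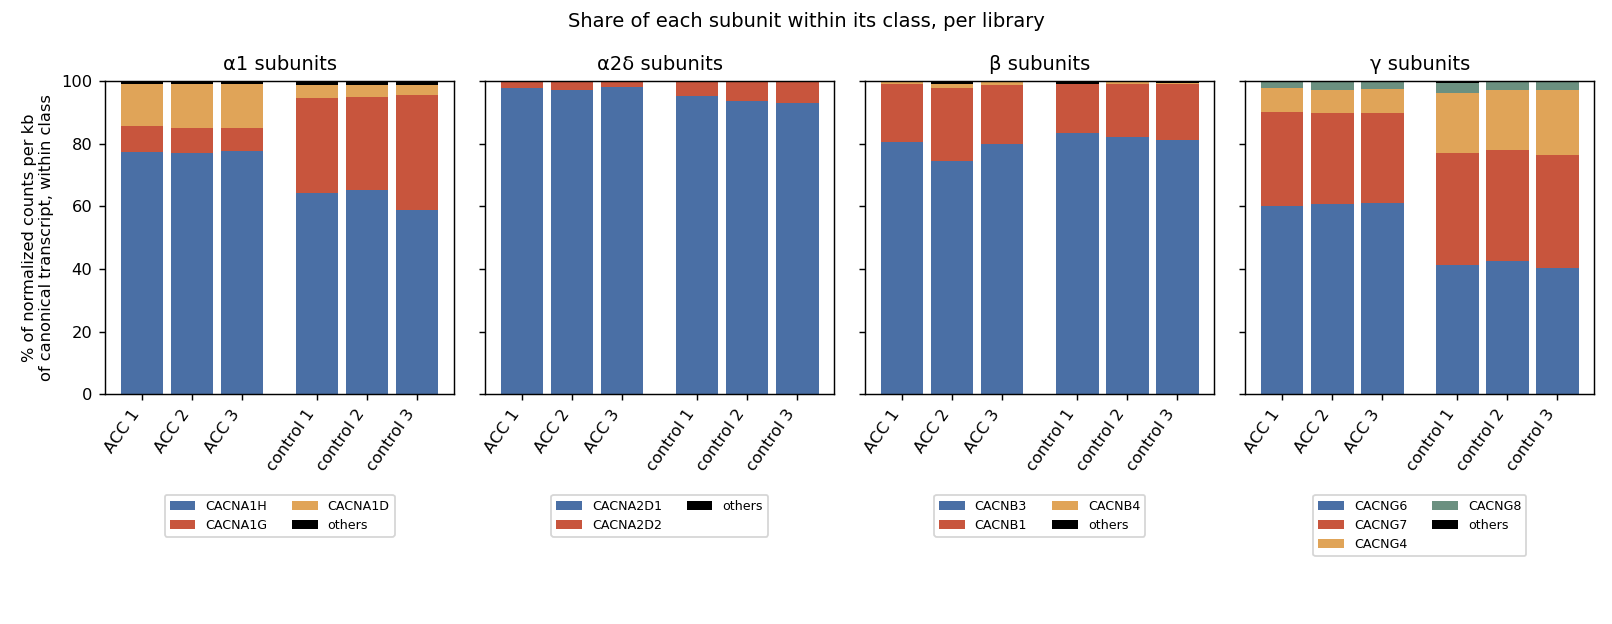
Share of each gene, in percent, of the per-kb normalized counts summed over its subunit class, as 1 stacked bar for each of the 3 ACC libraries and, to their right, each of the 3 control libraries. Among α1 genes CACNA1G makes up a mean of 7.69% with ACC and 32.2% in control cells, while CACNA1H stays the largest share in both.

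CACNA2D1 encodes an α2δ subunit to which gabapentinoid drugs bind, and lies at chr7:81946444-82443956 on the minus strand. It had 2181.04, 2088.1 and 2222.87 normalized counts with ACC, against 1832.07, 1793.23 and 1590.65 in control cells. All ACC libraries were above all control libraries, and control replicate 3 was again the lowest. The ratio of means was 1.24 and the log2 difference 0.32, or 0.26 without control replicate 3. This gene supplied nearly all α2δ RNA per kb, 97.7% with ACC and 93.9% in control cells. The rest was almost entirely CACNA2D2, with 36.34, 45.27 and 28.64 normalized counts with ACC and 70.35, 88.02 and 91.17 in control cells, so the α2δ gene of lower level differed in the opposite direction to CACNA2D1.

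CACNB3 was the most abundant β gene per kb, with 178.7 in ACC cells and 233.6 in control cells. It lies at chr12:48813794-48828941 on the plus strand and had 525.46, 506.62 and 539.1 normalized counts with ACC, against 707.39, 709.47 and 637.21 in control cells. The groups did not overlap, and the mean with ACC was 76.5% of the control mean (log2 difference -0.39). CACNB1, the β subunit best known from skeletal muscle, at chr17:39173453-39197702 on the minus strand, had 150.93, 200.33 and 161.63 normalized counts in ACC cells and 166.73, 186.7 and 177.58 in control cells. Its groups overlapped, with the ACC libraries holding both the lowest and the highest value, and the log2 difference was -0.06.

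CACNB4, a β subunit mainly of neurons, at chr2:151832771-152099167 on the minus strand, was the gene of lowest level among the 8. It had 12.11, 26.0 and 18.41 normalized counts in ACC cells and 6.75, 15.11 and 7.6 in control cells, from 7 to 27 reads per library. The groups overlapped, and the log2 difference of 0.89 did not pass in the main comparison. It ranged over 0.64 to 1.22 across the alternatives that kept the gene, and in 4 of them it passed. The counting error alone is large at such depth, with an expected coefficient of variation of 22.7% in ACC cells and 30.6% in control cells. The observed one was 36.9% in ACC cells and 46.9% in control cells. Summed over the β genes, the per-kb level was 228.3 with ACC and 284.1 in control cells, and CACNB3 made up 78.3 ± 3.32% of it with ACC and 82.2 ± 1.13% in control cells.

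CACNG4, at chr17:66964707-67033398 on the plus strand, had 515.21, 499.87 and 503.29 normalized counts with ACC, against 1164.2, 1193.12 and 1184.2 in control cells. Every ACC library was below every control library by more than 600 normalized counts. The mean with ACC was 42.9% of the control mean, and the log2 difference was -1.22. Its replicates were the tightest of the 8 genes, with a coefficient of variation of 1.59% with ACC and 1.25% in control cells, where counting alone would give 4.38% with ACC and 2.81% in control cells.

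The most abundant γ gene per kb was CACNG6, which is not among the 8 and is related to the muscle γ subunit. It had 2807.12, 2882.7 and 2885.75 normalized counts with ACC, against 1745.33, 1881.25 and 1607.75 in control cells. CACNG6 made up 60.5% of γ RNA per kb with ACC and 41.4% in control cells, while CACNG4 made up 7.48 ± 0.175% with ACC and 19.6 ± 0.963% in control cells. CACNG6, CACNG7 and CACNG8 lie side by side on chromosome 19 and differed from one another. CACNG7 had 1511.92 to 1550.3 normalized counts with ACC and 1592.55 to 1723.89 in control cells, and CACNG8 overlapped between the groups, with 359.62 to 450.1 with ACC and 365.61 to 460.67 in control cells.

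Of the 26 subunit symbols of the family, 24 are in the table, 17 were tested, and 4 passed as higher and 6 as lower. Under the alternatives tried, 4 to 5 passed as higher and 5 to 7 as lower. The main count is 58.8% of the tested family genes, against 43.3% of all tested genes. All 10 passing genes are among the 12 family genes with at least 30 reads in a library. Of the 13860 tested genes at that depth, 55.5% passed. However, 6 of the 10 belong to the 8 genes chosen with the contrast known. The family's median log2 difference was -0.06, where the median of all tested genes was 0.00. CACNG2 and CACNG5 were not analysed here. Of the 16 family genes outside the 8, 9 were tested, and CACNG6 passed as higher and CACNA1I, CACNA2D2 and CACNG7 as lower. The other 7 fell under the filter, 2 of them (CACNA1F and CACNG3) with no read.

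**Figure D3:**
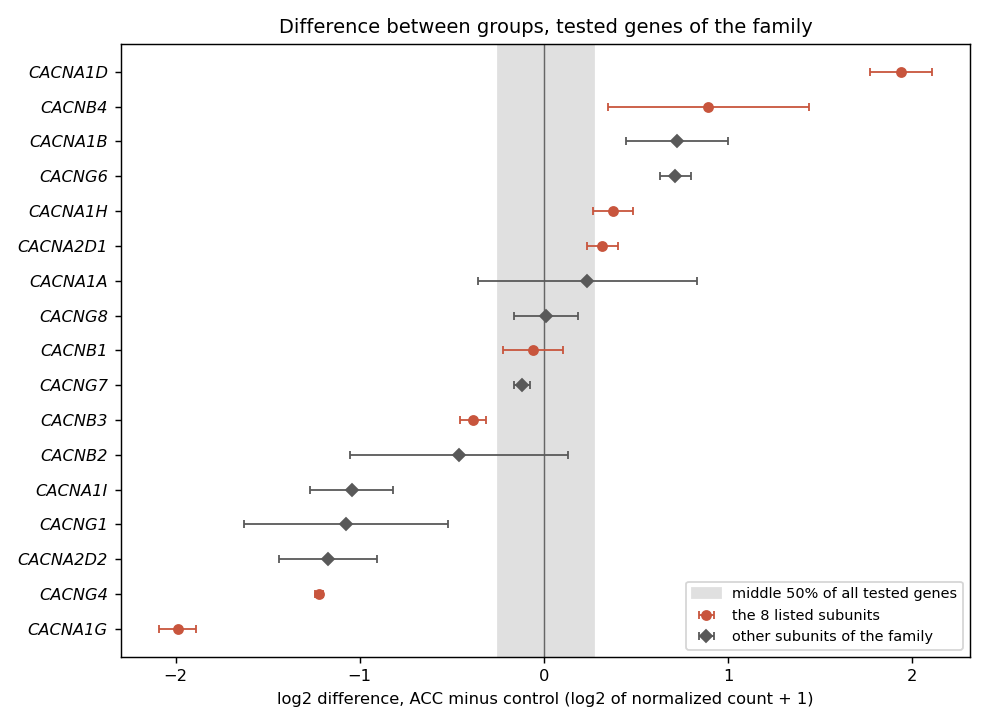
Difference between ACC and control cells on the log2(normalized count + 1) scale for the 17 tested subunit genes, in order of the difference, with positive values higher with ACC, error bars for the pooled SD of the log2 values and a gray band for the middle 50% of all tested genes. CACNA1D lies at 1.94 and CACNA1G at -1.99, the ends of the range among the 8 genes described.

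Proteins that bind these channels or set their gating, trafficking or turnover were examined as a list of 30 genes, of which 25 were tested. In this list 6 passed as higher and 9 as lower, which is 60.0% of those tested, against 43.3% of all tested genes. The list's median log2 difference was -0.06. In a separate fit of genes with at least 30 reads in a library, 6 of 20 passed as higher and 8 as lower. Of all 13860 genes in that fit, 3866 passed as higher and 4018 as lower. STAC is an adaptor that slows the inactivation of L-type channels. It rose to a mean of 65.0 normalized counts with ACC, against 27.0 in control cells (log2 difference 1.24 ± 0.18 SE, limma adjusted p = 1.41e-05). Its relative STAC2, at a low level, fell to 3.49 normalized counts, against 14.41 in control cells (limma adjusted p = 0.00236), and STAC3 did not pass. RRAD, the 1 gene of this list called lower, had 11.03 normalized counts with ACC, against 32.25 in control cells (limma adjusted p = 0.00081). NEDD4L, a ubiquitin ligase that lowers the surface number of several ion channels, rose to 2072 normalized counts, against 1407 in control cells (log2 difference 0.56, limma adjusted p = 5.22e-09), whereas its relative NEDD4 fell (log2 difference -0.40, limma adjusted p = 2.70e-07).

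The proteins of vesicle release that work beside presynaptic calcium channels did not all differ in the same direction. VAMP2, a vesicle SNARE, and SYT1, a calcium sensor of release, rose with ACC (log2 differences 0.53 and 0.41, limma adjusted p = 9.09e-09 and 1.60e-05). SNAP25, a SNARE of the plasma membrane, fell to 1408 normalized counts with ACC, against 2354 in control cells (log2 difference -0.74, limma adjusted p = 4.76e-10). PRKACA, the catalytic subunit of protein kinase A, also fell (log2 difference -0.54, limma adjusted p = 1.15e-08). CALM2, which encodes calmodulin, had a log2 difference of 0.01 (limma adjusted p = 0.805).

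Calcium-dependent signaling downstream of entry was followed in 31 genes, of which 27 were tested, 7 passed as higher and 10 as lower, with a median log2 difference of -0.07. The share passing was 63.0%, against 43.3% of all tested genes. In the separate fit of genes with at least 30 reads, 7 of 24 passed as higher and 8 as lower. Of all 13860 genes in that fit, 3866 passed as higher and 4018 as lower. CAMK2D, a calmodulin-dependent kinase, rose to 2883 normalized counts with ACC, against 1532 in control cells (log2 difference 0.91 ± 0.04 SE, limma adjusted p = 6.09e-12). NFATC2, a transcription factor that calcineurin activates, also rose (log2 difference 0.47, limma adjusted p = 0.000423), as did CRTC3 and CAMK2N1 by less (log2 differences 0.18 and 0.14, limma adjusted p = 0.00212 and 0.00908). Lower levels were found for CAMK1D (log2 difference -0.56, limma adjusted p = 2.04e-08), for the calcineurin regulator RCAN1 (-0.54, 5.72e-06), for the calcineurin catalytic subunit PPP3CA (-0.29, 1.11e-05) and for CAMK2G (-0.20, 0.00204). PPP3R1, the regulatory subunit of calcineurin, did not pass (log2 difference -0.07, limma adjusted p = 0.277).

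The related voltage-gated sodium channels and NALCN, a sodium leak channel, gave 9 tested genes of 20, of which 1 passed as higher and 2 as lower, with a median log2 difference of -0.04. This is 33.3% of them, against 43.3% of all tested genes. SCN9A fell (log2 difference -0.43, limma adjusted p = 5.06e-06). The higher gene, SCN4A, had at most 7.45 normalized counts in a library. The counts of this list changed with several processing alternatives.

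**Figure D4:**
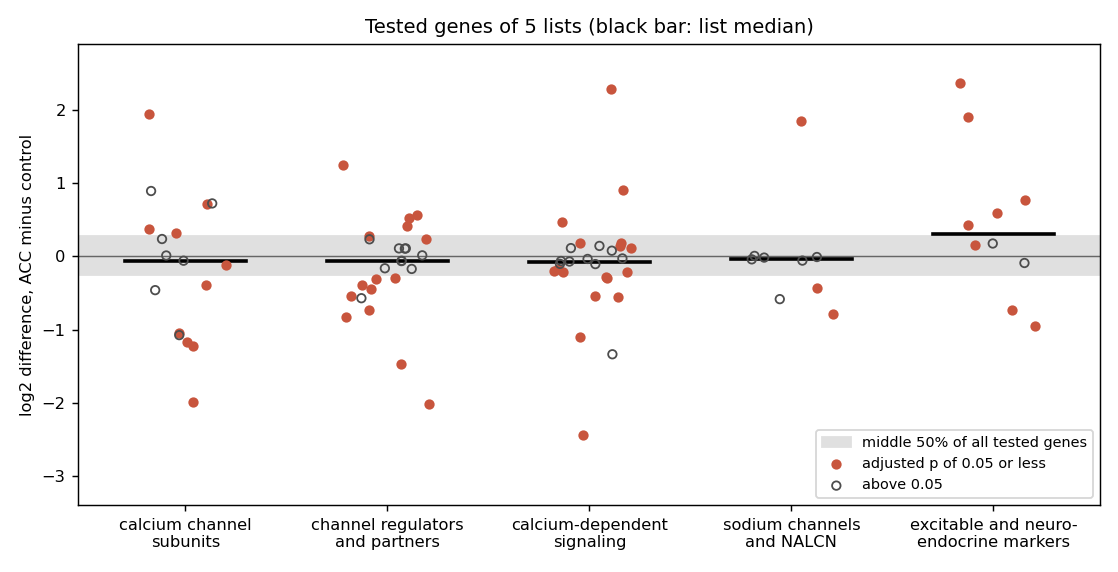
Difference between ACC and control cells on the log2(normalized count + 1) scale for every tested gene of the subunit family, the channel regulators, the downstream signaling genes, the sodium channel and NALCN genes and the excitable cell markers. The medians are -0.06, -0.06, -0.07, -0.04 and 0.30, and the points above 0 are higher with ACC.

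Markers of neurons, neuroendocrine cells and muscle, the cells best known for these channels, were examined as a list of 20 genes, of which 14 are in the table and 10 were tested. In that list 6 passed as higher and 2 as lower, or 80.0%, where 43.3% of all tested genes passed. By direction, 21.3% of all tested genes passed as higher and 21.9% as lower. Under DESeq2, 4 list genes passed as higher, and 4 to 6 did when libraries were left out, with 2 lower throughout. The list's summed level was 6241 to 6414 normalized counts in ACC libraries and 4340 to 4914 in control libraries. The largest gene in the ACC sum was RBFOX3, with a mean of 2753, against 737.0 in control cells. In the control sum it was SNAP25, with a mean of 2354, against 1408 with ACC. The higher sum with ACC rested on RBFOX3 and does not describe the other genes of the list. CHGB, a secretory granule protein, rose to 600.6 normalized counts with ACC, against 116.7 in control cells (log2 difference 2.37, limma adjusted p = 3.75e-12), and RBFOX3, a neuronal splicing factor, rose to 2753, against 737.0 (log2 difference 1.91, limma adjusted p = 2.08e-13). RYR1 and SYP rose by less (log2 differences 0.59 and 0.43, limma adjusted p = 0.000395 and 0.00728). TUBB3, a neuronal tubulin, fell (log2 difference -0.95, limma adjusted p = 1.32e-07), and so did SNAP25, which is also in the regulator list.

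The defining muscle genes DES, ACTA1 and TNNT2 and the neuroendocrine gene NCAM1 stayed under 5 normalized counts in every library. The fibroblast list, all 4 tested genes of 5, was lower with ACC, with a summed level of 455.6 to 541.3 normalized counts, against 2066 to 2265 in control cells, most of it COL1A1 (log2 difference -2.15, limma adjusted p = 1.17e-14). DCN, a defining fibroblast gene, had 0.00 normalized counts in ACC cells and a mean of 0.32 in control cells. All 6 epithelial markers passed, where 55.5% of all tested genes with at least 30 reads in a library did. EPCAM, CDH1 and KRT19 were higher with ACC (log2 differences 0.62, 1.10 and 0.64). KRT8, KRT18 and KRT7 were lower (log2 differences -0.31, -0.42 and -0.50). These markers moved with the same contrast as the channel genes, and their part in the channel differences was not tested.

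The genes whose profile over the 6 libraries was most like that of each of the 3 most different subunits were sought among 11428 genes, by the Euclidean distance between log2 profiles centred on their mean. For CACNA1D these were SPX (distance 0.107), RBFOX3 (0.108) and HHIPL2 (0.111). For CACNA1G they were MFGE8 (0.120), DUSP1 (0.152) and CD274 (0.155). For CACNG4 they were FOXP1 (0.056), SGCD (0.071) and SLIT3 (0.075). The likeness rests on the difference between 2 groups of 3 libraries and is a description.

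Genes next to the subunits in the genome were tabulated after the values had been seen. Of the tested genes outside the family within 500000 bases of CACNA1G, 7 passed as higher and 8 as lower of 32, or 46.9%, close to the 43.3% of all tested genes. SPATA20, 4863 bases before CACNA1G, had a log2 difference of -0.0009 (limma adjusted p = 0.988), and ABCC3, a drug and bile salt exporter 7303 bases after it, was higher with ACC (log2 difference 0.63, limma adjusted p = 1.85e-07). Around CACNA1D, 3 of 14 passed as higher and 1 as lower, or 28.6%. Its nearest neighbour before the start with at least 30 reads, TKT, which encodes transketolase, had a log2 difference of 0.14 (limma adjusted p = 0.000935). Around CACNG4, 2 of 5 passed as higher and 2 as lower, or 80.0%. Of these neighbours, 4 had at least 30 reads, of which 2 passed as higher and 2 as lower. Among all tested genes at that depth, 55.5% passed. The nearest on either side, PRKCA and HELZ, were higher with ACC (log2 differences 0.21 and 0.19, limma adjusted p = 0.000203 and 0.0127), while CACNG4 itself had -1.22.

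Both tested neighbours of CACNA2D1 passed as higher with ACC, where 21.3% of all tested genes did. HGF, a growth factor, had 42.2 normalized counts in ACC cells and 9.01 in control cells (log2 difference 2.08, limma adjusted p = 1.17e-05), and PCLO, a scaffold of presynaptic active zones, had 123.7 with ACC and 84.2 in control cells (log2 difference 0.56, limma adjusted p = 0.00332). SSTR5, a somatostatin receptor gene 71652 bases before CACNA1H, had 35.0 normalized counts in ACC cells and 1.87 in control cells (log2 difference 3.62, limma adjusted p = 6.57e-08). The study's methods give 3 cultures per group but not when they were split from one another, so p-values measure the spread between these libraries only.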

How the data were processed

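Polyadenylated RNA of A549 cells (3 ACC and 3 control libraries) was sequenced, and libraries were grouped by the submitters' labels. Reads were trimmed with Cutadapt, mapped to GRCh38 with STAR 2.4.2a, counted per gene with htseq-count and normalized with DESeq2 by the authors, as the study's methods and the submitters' processing notes state. In the deposited table each signal value is a gene's read count over the library's size factor. Their own fold changes and p-values, also in the table, were not used. Within 0.1 read, 100% of values are whole multiples of 1 read, so reads were recovered.

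limma 3.58.1 (R 4.3.3) with a mean-variance trend was fitted to log2(normalized count + 1) of the 19318 genes whose values summed to at least 10, with Benjamini-Hochberg adjustment. A fold change on this scale understates the change of low genes. A gene passed at an adjusted p of 0.05 or less, and was called with a 2-fold change and 30 reads in a library besides. edgeR 4.0.16, added as a count test on recovered reads, called 551 genes higher and 430 lower, against 536 and 432 in limma, and DESeq2 1.42.0 was also tried.

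The subunits and gene lists were chosen with earlier results of these data known. All 8 subunits are named. From each other list, up to 4 genes per direction with the smallest adjusted p and a mean of at least 30 in the higher group are named, with the gene of highest mean that did not pass, except for items not reported here. Overlapping genes in the table and the 3 genes nearest in profile, among those with a mean of at least 100, are also named. SCN4A, STAC2, STAC3 and RRAD, all at low levels, were named after their values were seen, as were neighbours and marker genes. Levels were set against the length of the canonical GENCODE transcript or of all exons. Upstream windows come from RefSeq tables.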

Additional observations from a re-analysis of the deposited data

How the results depend on the processing

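Results were recomputed under 16 alternatives: edgeR, DESeq2, 2 other scalings, 2 other pseudocounts, 2 other filters, a replicate block, no variance trend, and leaving out each of the 6 libraries. The direction of 7 of the 8 subunits was the same under all of these that gave a value. CACNB1, which did not pass, had a log2 difference of 0.025 without ACC replicate 1, against -0.059 with all libraries, and ranged over -0.178 to 0.025 when libraries were left out. CACNB4 has no value under the filter of 30 reads. It passed with a pseudocount of 5, with the replicate block, without ACC replicate 1 and without control replicate 2, which makes 4 subunits that passed as higher instead of 3. Under each alternative 3 subunits passed as lower. In the whole family, 5 instead of 6 passed as lower under DESeq2 and without the variance trend, and 5 to 7 did when libraries were left out, with 7 without control replicate 3.

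The sodium channel and NALCN list had 0 genes higher and 1 lower under DESeq2 and under the filter of 30 reads, and 0 to 1 higher and 1 to 2 lower when libraries were left out. The cause was not tested, other than that the filter tests fewer genes. The block on replicate number left 536 genes called higher and 432 lower. Deviations of same-numbered libraries correlated at -0.114, 0.044 and -0.031 over 13126 genes, and those of unlike-numbered libraries at -0.097 to 0.13. These values show no sign that the numbers pair the libraries, but cannot exclude it. DESeq2 passed 3437 genes as higher and 3472 as lower, against 4118 and 4240 in limma. Depth limits CACNB4 and the other subunits under 30 reads in every library.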
